A study of Homo sapiens with 12 samples.

Results

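Of 29152 H3K4me1 regions in KBM-7 cells that lay more than 2 kb from either end of any annotated gene, 1961 overlapped H3K27me3 by at least 1 bp and did not overlap H3K27ac. These 1961 regions, called here the regions inside H3K27me3, were 6.73% of the distal H3K4me1 regions (Wilson 95% interval 6.44 to 7.02%) and 4.60% of all 42673 H3K4me1 regions. They were set against the 26203 other distal regions, which overlapped neither H3K27me3 nor H3K27ac, and beside the 988 distal regions that overlapped H3K27ac. No distal region overlapped both H3K27me3 and H3K27ac, so the condition on H3K27ac left out none. H3K27ac had only 3368 called regions over 2.43 Mb, against 19505 for H3K9ac and 50132 for H3K4me2. It overlapped 3.39% of distal regions, so a lack of it sets few regions apart. H3K27me3 covered 914 Mb, and 16.1 to 42.9% of the span of each chromosome, so the share of 6.73% lay below its share of bases. The regions were chosen by the called intervals of H3K4me1, H3K27me3 and H3K27ac, so the values of these 3 marks are given as a description and support nothing.

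KBM-7 is an established human line from a chronic myeloid leukaemia, nearly haploid, and every library was made from these cells after formaldehyde crosslinking, with no treatment named in the labels. Chromatin immunoprecipitation followed by sequencing was done for 9 histone marks, with 1 library each, and 3 inputs were sequenced. The deposited data are called intervals without counts or signal, so depth is unknown, nothing could be tested between replicates, and the intervals given below cover counting error only. A region without a mark is a region without a called interval, which may hold a signal under the calling threshold. The intervals under the names H3K36me3 and H4K16ac were identical and are treated as 1 set, which cannot be assigned to either mark. The cell type was checked on marker genes: 11 of 12 blood progenitor genes, among them PTPRC, CD34, GATA2 and RUNX1, had H3K4me3 in or within 1 kb of the gene. CD33 had it only inside the gene, over 750 bp, and KIT had none there and H3K27me3 at an end. None of 6 genes of other tissues had H3K4me3 there, and all 6 had H3K27me3 within 1 kb of an end.

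Monomethylation of lysine 4 on histone H3 marks enhancers, the elements that act on promoters at a distance. Where lysine 27 is acetylated the enhancer is usually called active, where it carries neither acetylation nor trimethylation it is called primed, and where Polycomb repressive complex PRC2 has trimethylated it the enhancer is called poised. Poised enhancers were described mainly in pluripotent cells, next to developmental genes that stay silent until differentiation. H3K4me2 covers both enhancers and promoters, H3K4me3 and H3K9ac lie at active promoters, H3K79me2 is laid down by DOT1L in the early part of transcribed genes, and H3K36me3 by SETD2 along the rest of the gene body.

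Promoter sequences were taken from RefSeq (GRCh38.p14), where 15812 of 19974 protein-coding genes matched 1, and the regions themselves are given by their GRCh38 coordinates. The 3 promoters printed here, the 250 bases before the annotated start, belong to genes in or near the H3K27me3 regions described below, and were chosen after their values were seen to show how much such promoters differed in CG dinucleotides, the sites of CpG methylation. CG dinucleotides are in capitals. The TOX2 promoter (chr20:43915880-43916129, plus strand) shares an H3K27me3 region with 7 of the H3K4me1 regions, and those of IRF4 (chr6:391502-391751, plus strand) and CSF2 (chr5:132073539-132073788, plus strand) with 1 each.
TOX2: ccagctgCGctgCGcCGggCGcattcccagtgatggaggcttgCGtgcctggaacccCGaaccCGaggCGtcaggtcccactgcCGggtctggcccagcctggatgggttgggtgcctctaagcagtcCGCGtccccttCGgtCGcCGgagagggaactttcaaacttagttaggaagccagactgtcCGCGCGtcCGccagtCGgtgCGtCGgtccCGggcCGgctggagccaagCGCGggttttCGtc
IRF4: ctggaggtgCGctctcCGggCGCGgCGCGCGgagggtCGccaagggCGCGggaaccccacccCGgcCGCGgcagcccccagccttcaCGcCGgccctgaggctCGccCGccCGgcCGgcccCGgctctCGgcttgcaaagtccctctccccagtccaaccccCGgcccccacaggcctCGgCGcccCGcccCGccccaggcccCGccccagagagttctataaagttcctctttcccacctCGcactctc
CSF2: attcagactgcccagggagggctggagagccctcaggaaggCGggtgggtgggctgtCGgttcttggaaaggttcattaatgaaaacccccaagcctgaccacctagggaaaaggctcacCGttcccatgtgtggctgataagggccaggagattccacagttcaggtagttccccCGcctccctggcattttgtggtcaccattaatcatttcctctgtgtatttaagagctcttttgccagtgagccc
These stretches hold 26 CG dinucleotides for TOX2, 28 for IRF4 and 4 for CSF2. No H3K4me3 or H3K9ac interval lay over any of the 3 promoters. H3K4me2 covered the whole IRF4 promoter, from 250 bases before to 50 after the start, and none of the other two.

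Most regions inside H3K27me3 carried H3K4me2, and few carried a mark of transcription. H3K4me2 overlapped 1352 of the 1961 regions, 68.9% (66.9 to 71.0%), against 70.7% (70.1 to 71.2%) of the other distal regions and a background of 71.5% of all distal regions. The difference was -1.74 percentage points, with an interval of -3.90 to 0.34. It was -3.04 (-5.39 to -0.76) for regions at least 50% under H3K27me3 and -6.41 (-9.11 to -3.79) for those wholly under it, so that both of these intervals excluded 0. Both of these groups were narrower than the other distal regions, with medians of 600 bp against 750 bp, and H3K4me2 overlap rose with width, as given below. Regions with H3K27ac stood apart from both, since 99.1% of them overlapped H3K4me2. Where H3K4me2 was present it covered 79.4% of the bases in regions inside H3K27me3 and 77.5% in other distal regions.

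**Figure D1:**
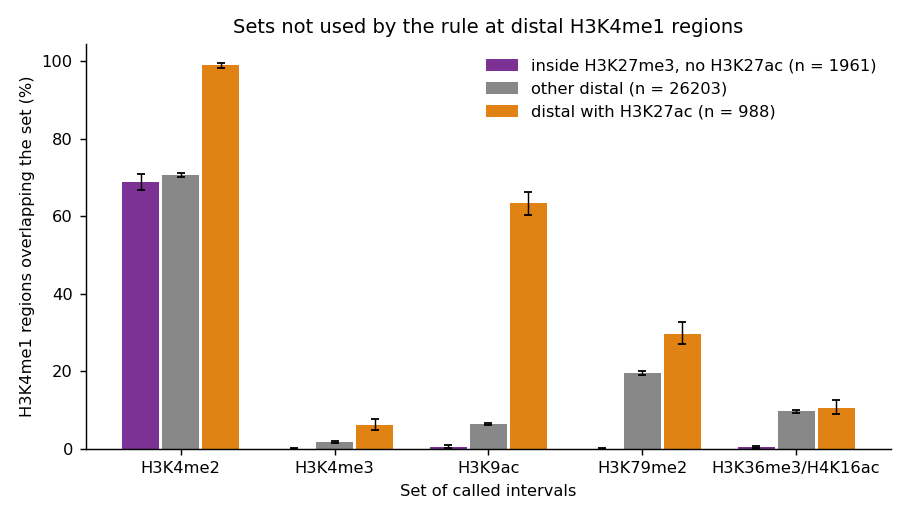
Share of distal H3K4me1 regions (%, vertical axis from 0) that overlapped each set not used to choose them, for regions inside H3K27me3 without H3K27ac (purple), other distal regions (grey) and distal regions with H3K27ac (orange). Bars are shares and whiskers Wilson 95% intervals. The purple and grey bars are at 68.9% and 70.7% for H3K4me2, and the purple bars are under 1% for the other 4 sets.

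H3K79me2 overlapped 1 region inside H3K27me3, 0.0510%, against 19.5% of other distal regions and a background of 18.5% of all distal regions. The difference was -19.4 percentage points (-19.9 to -18.9). H3K36me3/H4K16ac overlapped 7 regions inside H3K27me3, 0.357%, against 9.70% of other distal regions, with a background of 9.1% and a difference of -9.34 (-9.75 to -8.82). H3K9ac overlapped 10 regions inside H3K27me3, 0.510%, against 6.42% of other distal regions and 63.4% of those with H3K27ac, with a background of 7.95%. H3K4me3 overlapped 1 region inside H3K27me3, 0.0510%, against 1.72% of other distal regions, with a background of 1.76%. In total 68.0% of the regions inside H3K27me3 had H3K4me2 as their only other mark, against 49.2% of other distal regions, and 31.0% had none of the 5 sets, against 22.03%. The scarcity of marks other than H3K4me2 was not particular to distal regions. Of 698 H3K4me1 regions left out for distance that overlapped H3K27me3 and not H3K27ac, H3K79me2 overlapped 0.287%, H3K36me3/H4K16ac 0.860%, H3K4me3 1.43% and H3K9ac 5.01%. Among all 13521 regions left out for distance, which include these 698, the shares were 27.2%, 12.03%, 9.01% and 25.2%. H3K4me2 differed more here than in distal regions. It overlapped 77.8% of the 698 (74.6 to 80.7%) and 86.2% of the 13521 (85.6 to 86.7%). The matching distal shares were 68.9% inside H3K27me3 and 71.5% of all distal regions.

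The few regions inside H3K27me3 with an active mark could be named one by one. The region with H3K4me3 lies inside CORO2B, which encodes an actin-binding coronin (chr15:68577451-68578500). It was wholly under H3K27me3 and 150 of its 1050 bp carried H3K4me3. The region with H3K79me2 (chr22:25398151-25399350) lies inside another annotated gene, 165.3 kb from the nearest protein-coding gene GRK3, which encodes a kinase of G-protein-coupled receptors. Only 29.2% of the region was under H3K27me3. The 10 with H3K9ac are nearest to TLE3, UACA, CEACAM21, ABHD6, CREB5, DLGAP2, DENND3, SLC45A4 and, with 2 regions, DAB2IP, a GTPase-activating protein for Ras. H3K9ac covered 150 to 750 bp of each. The region of UACA lay 178 kb from the gene, that of DENND3 37.2 kb, ABHD6 4.8 kb and TLE3 2 kb, and the rest lay inside the gene named. The 7 with H3K36me3/H4K16ac are nearest to GON4L, IGSF10, PBK, CD99 and, with 3 regions, PLEC, which encodes the cytoskeletal linker plectin. In GON4L 1900 of the 1950 bp were covered, and in the other 6 regions 50 to 300 bp were. The region of CD99 lay 87.4 kb from it, inside another annotated gene, and the rest lay inside the gene named. Chromosome 8 and the stretch of chromosome 15 from 61 to 90 Mb, described further on, held 245 of the 1961 regions, and among them 5 of the 10 with H3K9ac, 4 of the 7 with H3K36me3/H4K16ac and the 1 with H3K4me3. Without these places H3K9ac overlapped 0.291% of regions inside H3K27me3 and 6.10% of other distal regions, and H3K36me3/H4K16ac overlapped 0.175% and 8.40%. H3K4me3 then overlapped 0 of 1716 regions inside H3K27me3 and 1.45% of other distal regions.

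Width moved with H3K4me2 in both groups. Regions were 300 to 7350 bp wide inside H3K27me3 and 300 to 12600 bp wide among the other distal regions, with a median of 750 bp in both and means of 894 bp and 980 bp. Among the regions 300 to 450 bp wide, 49.7% inside H3K27me3 and 50.6% of the other distal regions overlapped H3K4me2. The shares were 66.4% and 64.2% at 600 to 750 bp, 78.4% and 79.4% at 900 to 1200 bp, and 90.7% and 93.1% above 1200 bp. In each of the 4 width classes the interval of the difference included 0, and above 1200 bp the difference was -2.38 points (-5.80 to 0.25).

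**Figure D2:**
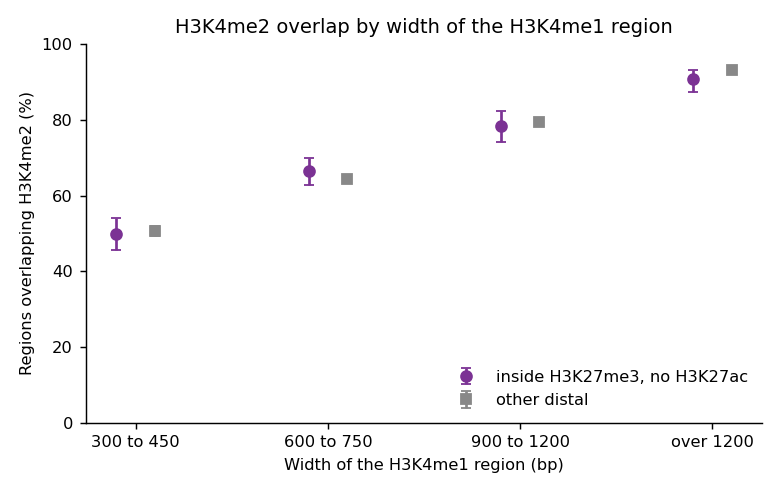
Share of H3K4me1 regions that overlapped H3K4me2 (%, vertical axis) in 4 classes of region width (bp, horizontal axis), for regions inside H3K27me3 without H3K27ac (purple circles) and other distal regions (grey squares), with Wilson 95% intervals. Both groups climb together with width, to 90.7% and 93.1% in the widest class.

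The regions differed among themselves by how far H3K27me3 reached over them. H3K27me3 covered 1299 of them wholly (66.2%, 64.1 to 68.3%), 364 by at least 50% but not wholly, and 298 by less than 50%. The smallest overlap was 50 bp, in 35 regions, while 39 other distal regions touched H3K27me3 without overlapping it. The distance rule was met narrowly as well, with the nearest region 2003 bp from a gene end and the farthest one left out for distance at 1991 bp. H3K4me2 overlapped 64.3% of the wholly covered regions (61.6 to 66.8%), 79.7% of those covered by at least 50%, and 76.2% of those covered less. The wholly covered regions were also narrower, with a median of 600 bp. Within width classes, wholly and partly covered regions had H3K4me2 in 47.1% and 60.8% at 300 to 450 bp, 66.8% and 65.4% at 600 to 750 bp, 74.7% and 84.1% at 900 to 1200 bp, and 87.2% and 93.4% above 1200 bp. The other distal regions had it in 50.6%, 64.2%, 79.4% and 93.1% of the same classes. Within a class the wholly covered regions thus differed less from them than the -6.41 points over all widths, or by about as much above 1200 bp.

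The H3K27me3 regions around them were wide. They held the H3K4me1 regions in 1660 of 117702 H3K27me3 regions, or 1.41%, and 1419 of these held 1, 199 held 2, 30 held 3, 10 held 4 and 2 held 7. The H3K27me3 region over an H3K4me1 region had a median width of 13500 bp, against 5000 bp for all H3K27me3 regions, and a wide region offers more bases in which to be counted. Per base, 61.4% of the H3K4me1 regions (59.2 to 63.5%) lay in H3K27me3 regions of at least 10000 bp, which held 59.6% of the H3K27me3 bases. The share was 36.4% (34.3 to 38.6%) in those of at least 20000 bp, which held 30.3%, and 10.2% (8.98 to 11.7%) in those of at least 50000 bp, which held 6.10%. Wholly covered regions lay a median of 3400 bp from the nearest edge. Seen from the centre of each H3K4me1 region, H3K27me3 covered 82.5% of bases within 0.5 kb, 89.3% at 2.25 kb, and 66.6% at 19.75 kb. Cover was thus lower at the centre than 2.25 kb away, in a group that includes the 298 regions covered by less than 50%.

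**Figure D3:**
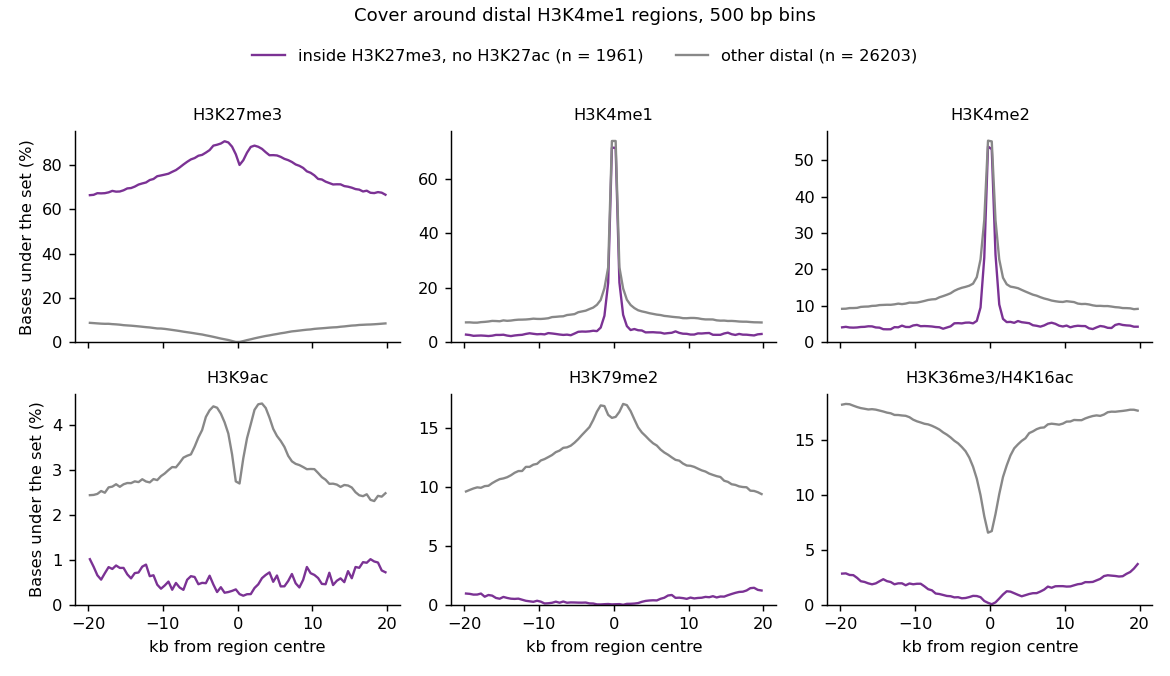
Share of bases under each of 6 sets (%, vertical axes, each with its own range) by distance from the centre of the H3K4me1 region (kb, in 500 bp bins), for regions inside H3K27me3 without H3K27ac (purple) and other distal regions (grey). H3K4me2 has a narrow peak at the centre of both, H3K27me3 falls to 66.6% at 19.75 kb around the purple group, and H3K79me2 stays near 1% or less around it.

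Other H3K4me1 regions and active marks lay nearby less often than around other distal regions. The gap to the nearest other H3K4me1 region had a median of 11400 bp for regions inside H3K27me3 and 1650 bp for other distal regions. Within 5 kb 39.98% against 67.2% had 1, and within 20 kb 58.9% against 86.8%. H3K9ac lay within 20 kb of 18.9% of the regions inside H3K27me3 and of 55.3% of other distal regions, and H3K4me3 within 20 kb of 13.6% and 40.1%. H3K27ac, which the rule used, lay within 20 kb of 10 regions inside H3K27me3 (0.510%) and of 19.5% of other distal regions. Cover by H3K79me2 was 0.0421% within 0.5 kb of the centre and 1.08% at 19.75 kb around regions inside H3K27me3, and 15.9% and 9.51% around other distal regions.

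Regions inside H3K27me3 lay outside annotated genes more often. Of the 1961, 846 lay in no annotated gene (43.1%, 41.0 to 45.3%), against 25.9% (25.3 to 26.4%) of other distal regions and 32.1% of those with H3K27ac. Inside a protein-coding gene the shares were 45.1% and 66.3%; the annotation used gives gene ends only, so exons and introns are not told apart. H3K79me2 and H3K36me3/H4K16ac follow gene bodies, and outside genes they overlapped 0 of 846 regions inside H3K27me3 and 0.959% and 0.472% of 6779 other distal regions. For H3K36me3/H4K16ac the interval of that difference included 0 (-0.666 to 0.00041). Inside genes H3K79me2 overlapped 0.0897% of regions inside H3K27me3 and 25.9% of other distal regions. H3K4me2 overlapped 66.2% of regions inside H3K27me3 outside genes, against 72.2% of other distal regions there, a difference of -6.03 points (-9.45 to -2.74), and 71.0% against 70.2% inside genes, a difference of 0.88 (-1.92 to 3.55). Outside genes and by width, the shares with H3K4me2 were 41.6% and 50.5% at 300 to 450 bp, 66.4% and 66.7% at 600 to 750 bp, 76.4% and 82.0% at 900 to 1200 bp, and 90.6% and 94.0% above 1200 bp.

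The nearest protein-coding gene of a region inside H3K27me3 mostly had H3K27me3 at an end and lacked H3K4me3 there. H3K4me3 lay within 1 kb of an end of that gene for 36.4% of regions inside H3K27me3 (34.3 to 38.5%) and for 71.5% (71.0 to 72.1%) of other distal regions, with a background of 69.1% of all distal regions and of 51.3% of all protein-coding genes. H3K79me2 did so for 18.1% and 52.1%, H3K9ac for 41.0% and 76.8%, and H3K4me2 for 69.6% and 87.1%. H3K27me3, whose library also chose the regions, lay at an end of the nearest gene for 68.4% and 15.2%, with a background of 18.7% of distal regions and 32.5% of genes. H3K27me3 without H3K4me3 was found for 55.7% and 10.6%, both marks together for 12.7% and 4.65%, and neither for 7.96% and 17.9%. The H3K27me3 region over the H3K4me1 region itself reached an end of the nearest gene in 319 cases (16.3%), of 1341 with H3K27me3 at an end. The difference in H3K4me3 was smaller outside genes, at 46.8% and 65.7%, than inside them, at 28.4% and 73.6%. The nearest gene is a matter of position and need not be the gene an enhancer acts on.

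Promoters that shared an H3K27me3 region with at least 1 of these H3K4me1 regions were richer in CG than those in H3K27me3 regions without any. Of the 167 promoters wholly in a shared region, 82 (49.1%, 41.6 to 56.6%) had at least 20 CG dinucleotides in 300 bases, counted as CG on either strand alike, against 36.4% (34.8 to 38.1%) of 3375 promoters in the remaining H3K27me3 regions and 55.6% of all promoters. The median numbers were 19 and 11, against 24 for promoters outside H3K27me3. H3K4me2 overlapped 39.5% and 26.3% of them, and H3K4me3 overlapped 5 of the 167 promoters (2.99%) and 2.81% of the 3375. H3K27me3 regions that hold H3K4me1 regions were also wider, as given above, and the part of that width in the CG count was not tested.

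In all, 1276 of 19974 protein-coding genes, or 6.39%, were nearest to at least 1 region inside H3K27me3; 410 were nearest to at least 2 and 10 to at least 7. TLE3, a corepressor of the Groucho family, was nearest to 15. The gene itself was active by its marks, with H3K4me3, H3K9ac and H3K79me2 at an end, 0% of its body under H3K27me3 and 92.8% under H3K36me3/H4K16ac, and all 15 regions lay outside it, 2 to 291.3 kb away and under 8 H3K27me3 regions. H3K4me2 overlapped 14 of the 15. UACA, on the far side of the same stretch of chromosome 15, was nearest to 14 regions, and 94.8% of its body was under H3K27me3. Of these, 7 lay in a 38500 bp H3K27me3 region (chr15:70449501-70488000), were 1050 to 3150 bp wide, and 6 had H3K4me2. TOX2, a transcription factor with an HMG box, was nearest to 7 regions, all inside the gene and under the same 155000 bp H3K27me3 region (chr20:43909501-44064500), 24649 to 44749 bp from the gene's closest end, and 6 had H3K4me2. None of the distal regions nearest to TOX2 was outside H3K27me3. No H3K4me3 or H3K9ac lay within 1 kb of an end of the gene, and no H3K79me2 or H3K36me3/H4K16ac lay in it.

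**Figure D4:**
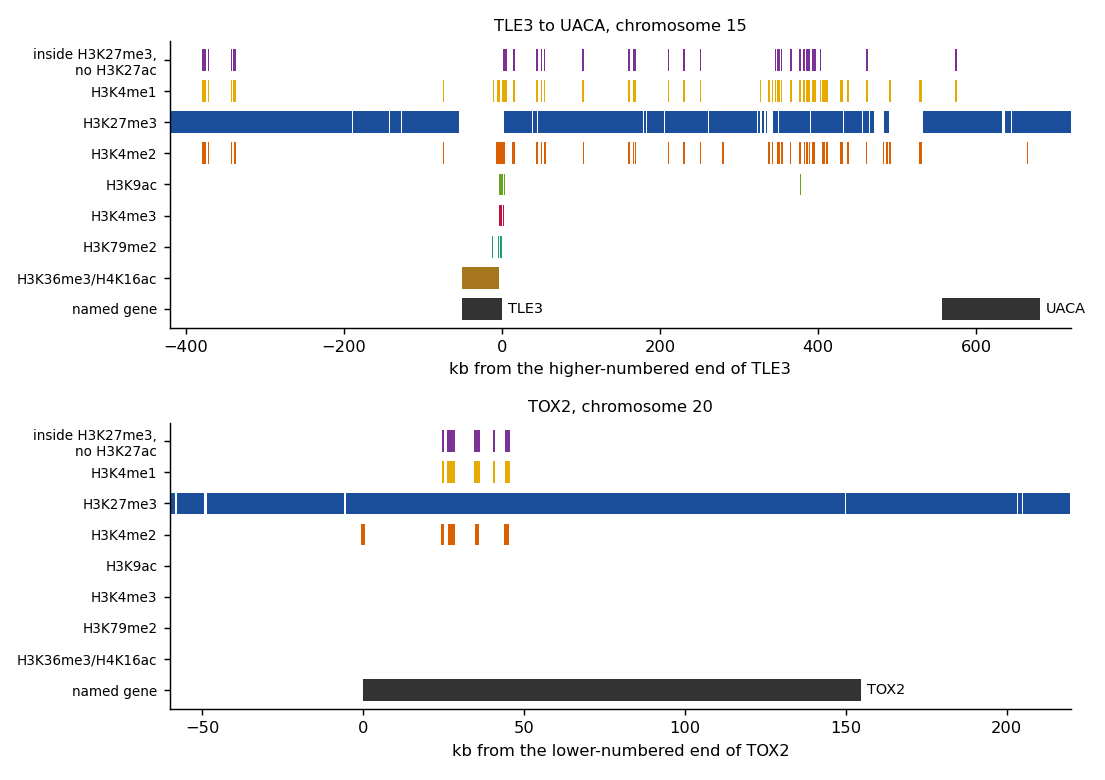
Called regions of each set (rows) along the TLE3 to UACA stretch and around TOX2, by distance in kb from the end of TLE3 and of TOX2 named on each axis; the top row shows the regions inside H3K27me3 without H3K27ac, and other genes of the windows are not drawn. The H3K27me3 cover leaves out the TLE3 body, which carries H3K36me3/H4K16ac, and takes in 99.7% of the TOX2 body. The narrowest regions are drawn somewhat wider than they are so that they can be seen.

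The other 7 genes with the most regions fell into those with and without H3K27me3 at their ends. NFILZ, named for its likeness to the leucine zipper factor NFIL3, was nearest to 11 regions, 7 of them in the gene. NFILZ had H3K27me3 and no H3K4me3 at an end, as did KIAA0513 with 7 and ZBTB16, which encodes the zinc finger factor PLZF, with 7, whereas MTSS1, an actin regulator nearest to 8 regions, had both marks. In KIAA0513 and ZBTB16 all 7 lay inside the gene and all 7 had H3K4me2. RERE, an atrophin-family corepressor, and RYBP, a subunit of Polycomb complex PRC1, had 7 each and had H3K4me3 and H3K79me2 at an end and no H3K27me3. The 7 regions of RERE lay inside the gene, 4 of them in a 7500 bp H3K27me3 region (chr1:8391501-8399000), and only 7.85% of the gene was under H3K27me3. Those of RYBP lay 84.5 to 229.1 kb from it. TRIB2, which encodes a pseudokinase, was nearest to 7 regions at 76.3 to 319 kb, had H3K9ac at an end, and had neither H3K4me3 nor H3K27me3 there.

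The 10 gene lists were described by the share of distal regions without H3K27ac, nearest to a listed gene, that lay inside H3K27me3, which was 6.96% over all genes. Developmental transcription factors had 51 of 263 (19.4%, 15.1 to 24.6%), and 67.5% of the 268 genes had H3K27me3 at an end, against 32.5% of all genes. ONECUT3, a homeodomain factor, had 3 such regions and no other distal region; they were 300 to 750 bp wide and all had H3K4me2. IRX3, an Iroquois homeodomain factor, had 3 at 22.1 to 161.3 kb but H3K4me3 and no H3K27me3 at its ends. ATOH8 and FOXO1 had 2 each inside the gene.

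Ligands and receptors of the Wnt, BMP, FGF and Hedgehog pathways had 18 of 111 (16.2%, 10.5 to 24.2%). WNT3 and WNT6, secreted Wnt ligands, GDF6, a BMP-family ligand, and CHRD, the BMP antagonist chordin, had 2 each, and all 4 genes had H3K27me3 and no H3K4me3 at an end. Cell adhesion and axon guidance genes had 40 of 267 (14.98%, 11.2 to 19.76%), led by EFNB2, an ephrin ligand, and UNC5A, a netrin receptor, with 4 each, all inside the gene and all with H3K4me2. Both had H3K27me3 and H3K4me3 at an end, whereas EPHA2, an ephrin receptor, and NRCAM, a neuronal adhesion molecule, with 3 each, had H3K27me3 alone of the pair. Neuronal receptor and channel genes had 39 of 316 (12.3%, 9.16 to 16.4%). SYN3, a synapsin, had 5 and the potassium channel gene KCNN3 had 4, while CACNA1C, a calcium channel gene, had 2 beside 25 other distal regions.

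Cytokine and chemokine genes had 27 of 285 (9.47%, 6.59 to 13.4%). CSF2, which encodes the growth factor GM-CSF, had 4 and no other distal region. They lay 4.2 to 38.6 kb from the gene, the nearest at chr5:132069001-132069600, wholly under H3K27me3 and with H3K4me2 over 300 of its 600 bp. CXCR4, a chemokine receptor, had 2 of 300 and 600 bp without H3K4me2, beside 9 other distal regions, and no H3K27me3 at its ends.

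Counted by regions, the blood lists lay near the share over all genes. Haematopoietic transcription factors had 19 of 358 (5.31%, 3.42 to 8.14%), granulocyte and monocyte genes 3 of 57 (5.26%), lymphocyte genes 5 of 71 (7.04%) and erythroid and megakaryocytic genes 1 of 26 (3.85%). Counted by genes, 10 of 40 haematopoietic transcription factors (25%, 14.2 to 40.2%) were nearest to such a region, against 6.39% of all genes. It was 2 of 28 granulocyte and monocyte genes, 3 of 32 lymphocyte genes and 1 of 28 erythroid and megakaryocytic genes. Developmental transcription factors had 13.1% by this count. A gene with more distal regions has more chances to be counted in this way. The 40 haematopoietic factors were nearest to 358 distal regions without H3K27ac, the 268 developmental factors to 263, and all 19974 genes to 28164. IRF4, MYCN and GATA3 had 3 each and IRF8 had 2. These encode transcription factors, and all 4 genes had H3K27me3 and no H3K4me3 at an end. MYCN alone of the 4 also had H3K9ac at an end, and H3K36me3/H4K16ac over 23.2% of its body. The 3 regions of GATA3 lay within 1 H3K27me3 region of 62000 bp, 56.3 to 62 kb from the gene. The region of IRF4 at chr6:379201-380100 was wholly under H3K27me3 and wholly under H3K4me2, and the other two of that gene had no H3K4me2. TLR4, the receptor for bacterial lipopolysaccharide, had 2, and FCN1, SLC4A1 and GZMB had 1 each. BACH2 and TOX had 2 each inside the gene, TOX beside 20 other distal regions. Housekeeping and ribosomal protein genes had 5 of 104 (4.81%, 2.07 to 10.8%), 3 of them nearest to RPL3, which had H3K4me3 and no H3K27me3 at its ends.

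Chromosome 8 and a stretch of chromosome 15 from 61 to 90 Mb, which KBM-7 is known to carry in more copies than the rest of its genome, held more of the regions. On chromosome 8, 169 of 1364 distal regions (12.4%, 10.7 to 14.2%) lay inside H3K27me3 without H3K27ac. In the stretch of chromosome 15 it was 76 of 561 (13.5%, 11.0 to 16.6%), against 29 of 564 (5.14%, 3.60 to 7.29%) on the rest of that chromosome. Of the 76 in the stretch, 15 were nearest to TLE3 and 14 to UACA, genes with only 2 and 4 other distal regions. The share of the stretch without this cluster was not computed, and the intervals count clustered regions as independent. Chromosome 8 and the stretch together had 12.7% (11.3 to 14.3%), against 6.30% (6.02 to 6.60%) elsewhere. On the chromosomes other than 8 and 15 shares ran between 4.08% on chromosome 21 and 9.43% on chromosome 19. The mean width of all H3K4me1 regions moved with this, at 1813 bp on chromosome 8 and 1967 bp in the stretch, against 789 to 1006 bp on chromosomes other than 8 and 15. H3K27me3 covered 34.8% of chromosome 8, within the range of 16.1 to 42.9% over all chromosomes. The part of copy number and of region width in the share was not tested.

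**Figure D5:**
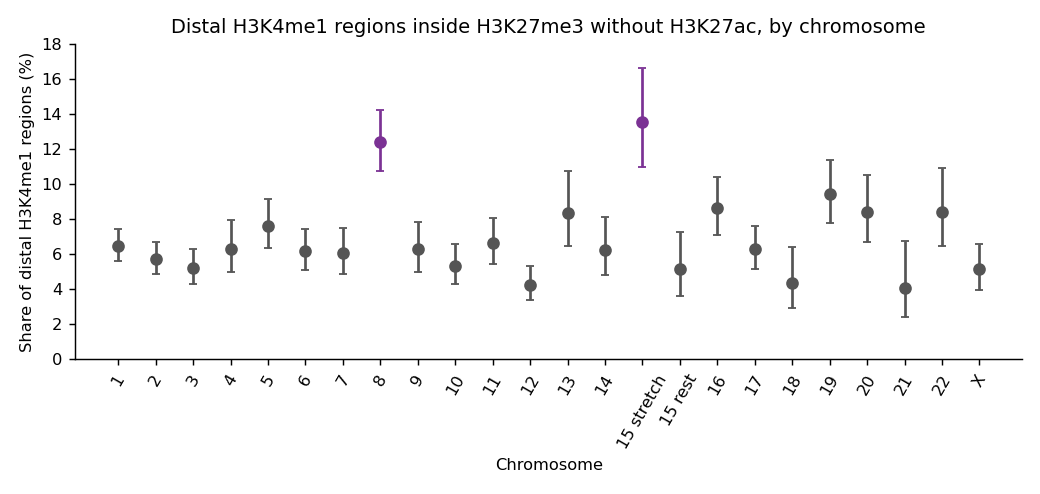
Share of distal H3K4me1 regions inside H3K27me3 without H3K27ac (%, vertical axis) on each chromosome, with Wilson 95% intervals; purple points are chromosome 8 and the 61 to 90 Mb stretch of chromosome 15, and the rest of chromosome 15 has a point of its own. The purple points lie at 12.4% and 13.5%, above the 9.43% of chromosome 19.

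The widest regions came from the same places. Of the 10 widest, 3 lay on chromosome 8 and 5 on chromosome 15. The widest, 7350 bp, lay 37.2 kb from DENND3 (chr8:141084001-141091350) outside any gene. It crossed the edge of a 154500 bp H3K27me3 region, which covered 13.6% of it, and had H3K4me2 over 6150 bp and H3K9ac over 600 bp. The next, 6000 bp, lay inside ENPP2, which encodes the lipid-producing enzyme autotaxin (chr8:119638501-119644500), and was 41.7% under H3K27me3. The remaining 2 were near TMCC2 (chr1:205284151-205289100, 4950 bp) and inside CDK15 (chr2:201879151-201883800, 4650 bp). H3K4me2 overlapped all 10, over 61.5 to 96.8% of their length, and only 2 of the 10 were wholly under H3K27me3, 1 of them nearest to TLE3 (chr15:70263301-70267350) and the other to UACA (chr15:70490401-70493850).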

How the data were processed

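Chromatin immunoprecipitation was sequenced for 9 histone marks in KBM-7 cells, with 1 library per mark, beside 3 inputs that entered no comparison. By the labels, H3K27me3 has an input of its own, H3K4me1, H3K4me2, H3K27ac, H3K36me3 and H4K16ac share another, and H3K4me3, H3K9ac and H3K79me2 share the last. The authors deposited 1 list of intervals with a mark name and no score or count. Per the submitters' processing notes, the tools were cutadapt, Bowtie2 and MACS and the build GRCh38, and no version or threshold is given in the sources used here. The intervals of 1 label without a sample were left out. H3K27me3 intervals start on a grid of 500 bp and those of H3K4me1 on one of 150 bp, so widths and overlaps come in such steps. Starts were brought to 1 convention.

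For each mark, intervals that overlapped or touched were merged to regions, on chromosomes 1 to 22 and X. Genes came from a RefSeq table of GRCh38.p14 with 59098 genes, 19974 of them protein-coding. Overlap meant at least 1 bp, and a mark at a gene end meant within 1 kb of either annotated end. Shares have Wilson intervals and differences Newcombe intervals, at 95%. With 1 library per mark no p-value was computed. Scripts (Python 3.11.15, numpy 2.4.6, pandas 2.3.3) were tested on simulated data. Alternatives changed the overlap, the distance, the annotation, the joining, the width and the chromosomes.

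Regions, gene lists and comparisons were chosen with earlier results of these data known. The text names the 10 widest regions, H3K27me3 regions that hold the most H3K4me1 regions, the 10 protein-coding genes nearest to the most regions and up to 4 genes per list; genes named for a region with an active mark and the printed promoters were chosen after their values were seen.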

Additional observations from a re-analysis of the deposited data

How the results depend on the processing

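Of 113 values recomputed under 11 alternatives, 81 stayed within the interval of the reported value or within its tolerance (1.5 times for the number of regions, 150 bp for the median width), and 32 moved beyond it. No value whose interval excluded 0 changed sign, while the H3K4me2 difference, whose interval includes 0, turned positive inside genes. The number of regions was 989 when only H3K4me1 regions at or above the median width were used. The share of distal regions was 5.70% with at least 50% of the region under H3K27me3, 7.02% with a distance of 5 kb, 6.42% without joining H3K4me1 intervals, 5.98% with the wide regions, 6.30% without chromosome 8 and the chromosome 15 stretch, and 7.24% with H3K27me3 joined over gaps of up to 3 kb. With a distance of 5 kb the differences, in percentage points, were -0.800 for H3K4me3, -4.87 for H3K9ac, -16.4 for H3K79me2, -8.49 for H3K36me3/H4K16ac and 49.96 for H3K27me3 at the nearest gene. With protein-coding genes only they were -6.36 for H3K9ac and 20.7 for regions outside genes. With the wide regions they were -7.31 for H3K9ac, -10.4 for H3K36me3/H4K16ac and -32.8 for H3K4me3 at the nearest gene. Without chromosome 8 and the stretch, H3K36me3/H4K16ac differed by -8.22.

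The alternatives chosen after seeing the data were regions outside genes, regions inside genes and wholly covered regions. Outside genes the differences were -6.03 for H3K4me2, -0.0738 for H3K4me3, -4.90 for H3K9ac, -0.959 for H3K79me2, -0.472 for H3K36me3/H4K16ac, -18.9 for H3K4me3 at the nearest gene and 39.7 for H3K27me3 there. The intervals outside genes included 0 for H3K4me3 (-0.173 to 0.380) and for H3K36me3/H4K16ac (-0.666 to 0.00041). Inside genes the differences were 0.881 for H3K4me2, -2.21 for H3K4me3, -25.8 for H3K79me2, -12.3 for H3K36me3/H4K16ac, -45.1 for H3K4me3 at the nearest gene and 63.1 for H3K27me3 there. For wholly covered regions alone H3K4me2 differed by -6.41. The cause of these moves was not tested. The interval of the H3K4me2 difference, which includes 0 as reported, excluded 0 under 5 of its 11 alternatives. These were at least 50% under H3K27me3 (-3.04, -5.39 to -0.76), protein-coding genes only (-2.20, -4.19 to -0.27), H3K27me3 joined over gaps (-2.03, -4.11 to -0.0088), outside genes (-9.45 to -2.74) and wholly covered regions (-9.11 to -3.79). No paired analysis was possible because each mark has 1 library, and no replicate could be left out. Called intervals without depth cannot tell an absent mark from one under the threshold.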
